A study of Mus musculus with 91 samples.

Results

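The anti-Rtl1 microRNAs (miRNAs) of the *Dlk1-Dio3* imprinted locus are described here in mouse post-implantation embryos without DNA methyltransferases, in androgenetic haploid embryonic stem cells (AG-haESCs) and in the semi-cloned (SC) embryos made from them. They were chosen by position: the 10 mature miRNAs from the 5 hairpins *Mir431*, *Mir433*, *Mir127*, *Mir434* and *Mir136*, which lie opposite the coding sequence of *Rtl1*. All 10 were among the 1504 mature miRNAs counted in the main table, and 99 other counted miRNAs came from genes between *Dlk1* and *Dio3*.

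*Dlk1-Dio3* is an imprinted domain in which protein-coding genes such as *Dlk1*, *Rtl1* and *Dio3* are transcribed from the paternal chromosome, whereas long non-coding RNAs and large miRNA clusters are transcribed from the maternal one. A differentially methylated region between the genes, the IG DMR, carries DNA methylation on the paternal chromosome, and the parental expression of the domain depends on it. *Rtl1* is a retrotransposon-derived gene needed for the fetal capillaries of the placenta. The miRNAs of its antisense transcript pair perfectly with the *Rtl1* mRNA and guide its cleavage, so that RNA made from the maternal chromosome represses a paternally expressed gene in trans.

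The mature sequences below, from RefSeq on GRCm38.p6, are shown because these arms are the features counted. All lie on the plus strand of chromosome 12, each is written from its 5′ end, and capitals mark the seed, bases 2 to 8, by which a miRNA mainly selects its targets.
mmu-miR-431-5p: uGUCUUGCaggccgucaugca
mmu-miR-431-3p: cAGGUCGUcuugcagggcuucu
mmu-miR-433-5p: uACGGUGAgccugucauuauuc
mmu-miR-433-3p: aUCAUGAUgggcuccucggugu
mmu-miR-127-5p: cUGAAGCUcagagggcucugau
mmu-miR-127-3p: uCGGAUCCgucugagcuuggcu
mmu-miR-434-5p: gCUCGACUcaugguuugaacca
mmu-miR-434-3p: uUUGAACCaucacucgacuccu
mmu-miR-136-5p: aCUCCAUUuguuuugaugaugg
mmu-miR-136-3p: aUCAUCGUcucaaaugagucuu

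No seed was shared between any of these 10 sequences. The hairpins were *Mir431* at chr12:109590447-109590537, *Mir433* at chr12:109591715-109591838, *Mir127* at chr12:109592846-109592915, *Mir434* at chr12:109594506-109594599 and *Mir136* at chr12:109595327-109595388, so that together they spanned 4942 bases. All 5 lay within exon 2 of *Rtl1*, which is on the minus strand, and within its coding sequence, chr12:109590172-109595403 (GENCODE vM21). Each of the 10 mature sequences was perfectly complementary to the *Rtl1* transcript at 1 position. The *Mir432* hairpin, chr12:109594956-109595030, lies in the same stretch and was not among the chosen miRNAs. *Mir127* was itself a target in the study. Its guide RNA, printed 5′ to 3′ with the PAM in capitals, matched the plus strand at chr12:109592885-109592904, and 17 of its 20 bases fell within miR-127-3p.
Mir127-sgRNA: tcatcggatccgtctgagctTGG

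Extra-embryonic ectoderm (Exe), which gives rise to trophoblast, and epiblast (Epi), which gives rise to the fetus, were taken from E6.5 and E7.5 embryos. The labels give their strain as a C57BL/6 male crossed with an F1 female, and per the study's methods the females were B6D2F1 (C57BL/6J and DBA2) and the males carried *Oct4-EGFP* on a C57BL/6J background. The groups were control, *Dnmt1*-KO (loss of the maintenance methyltransferase), *Dnmt3a/3b*-DKO (loss of both de novo methyltransferases) and *Dnmt*-null (loss of all 3 genes). Each had 4 libraries, except E7.5 Epi control and E7.5 Epi *Dnmt*-null with 3 each, giving 62 in all. The mutants were made by injecting zygotes with a cytosine base editor and guides that create stop codons, and the editing of each embryo was not analysed here. AG-haESCs, of strain C57BL/6, hold only a sperm-derived genome and were cultured in 2i, a medium in which they lose paternal imprints. The lines were wild type (WT, 3 libraries), O48, to which the labels give no genotype (3), and Mir-6KO, a single-cell derived line with *Mir127* and 5 other miRNA genes deleted (2). The study's methods name O48 as the line that received the deletion plasmids, and elsewhere the study places these deletions in AG-haESCs that already lacked the *H19* DMR and the IG DMR. SC embryos result from injecting an AG-haESC into an oocyte, so that a deletion made in the cells is on the sperm-derived chromosomes only. At E6.5 the SC groups were WT, *Dnmt*-null, DKO (made from AG-haESCs lacking the *H19* DMR and the IG DMR) and DKO;*Dnmt*-null. At E7.5 they were control and Mir-6KO;*Dnmt*-null, which differ by the miRNA deletions and the loss of the *Dnmt* genes together; per the study the cells behind both E7.5 groups lacked the *H19* and IG DMRs. Each SC group had 3 libraries. The study's legends give the E6.5 WT, *Dnmt*-null and DKO SC material as epiblast, and the legend to the E7.5 groups names no tissue. The labels do not say whether replicates were separate embryos, so that p-values measure the spread between libraries, which may be technical.

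Counts per library ranged from 45242 to 2394918 in Exe and Epi, and E6.5 Epi *Dnmt*-null libraries (45242 to 123169) were shallower than their controls (281158 to 458837), as were E7.5 Epi *Dnmt*-null libraries (272867 to 488108) than theirs (1623256 to 2325698). Levels are given as CPM, the miRNA's counts scaled to a library total of 1e+06. A count of 3 was worth 1.25 to 66.3 CPM in these libraries, which covers counting error only. A list of 5 epiblast miRNAs of the miR-302 cluster summed to 48473 to 212606 CPM in Epi and to 5617 to 45944 CPM in Exe. A list of 6 trophoblast miRNAs summed to 30082 to 69454 CPM in Exe. Blood miRNAs summed to at most 786 CPM in Exe and Epi, apart from 7846 CPM in an E6.5 Exe *Dnmt1*-KO library and 6271 CPM in an E7.5 Exe *Dnmt3a/3b*-DKO library. Endoderm miRNAs summed to 308 to 7995 CPM, and decidual miRNAs to at most 1138 CPM apart from 4228 CPM in an E6.5 Exe *Dnmt1*-KO library. The labels of 3 libraries went against their markers. The AG-haESC libraries labelled Mir-6KO had 239331 and 268002 CPM of miR-302 cluster miRNAs, against 3659 to 3914 in WT and 924 to 1670 in O48. Replicate 3 of E6.5 SC WT had 21252 CPM of them, against 195381 and 214514 in the other WT libraries.

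miR-127-3p was the main product of the 5 hairpins. Its median over the 62 Exe and Epi libraries was 44357 CPM, the third highest of all miRNAs counted. It made up 51.1% to 68.6% of the 10 miRNAs' counts in a library. miR-434-3p (12380 CPM), miR-434-5p (9268 CPM), miR-136-3p (4340 CPM) and miR-433-3p (3209 CPM) followed in this order of medians, ranked 15, 23, 49 and 62. The *Mir434* hairpin thus gave both arms at a high level, whereas the other abundant products were 3p arms. Lower medians were those of miR-431-5p (501 CPM), miR-431-3p (423 CPM), miR-136-5p (113 CPM) and miR-127-5p (70.04 CPM). miR-433-5p was at the limit of detection, with a median of 13.6 CPM and 3 counts or fewer in 27 libraries, 14 of them with 0. These levels are not scaled by length, since all 10 miRNAs have 21 or 22 bases, and the capture of each sequence by the ligation can differ.

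**Figure D1:**
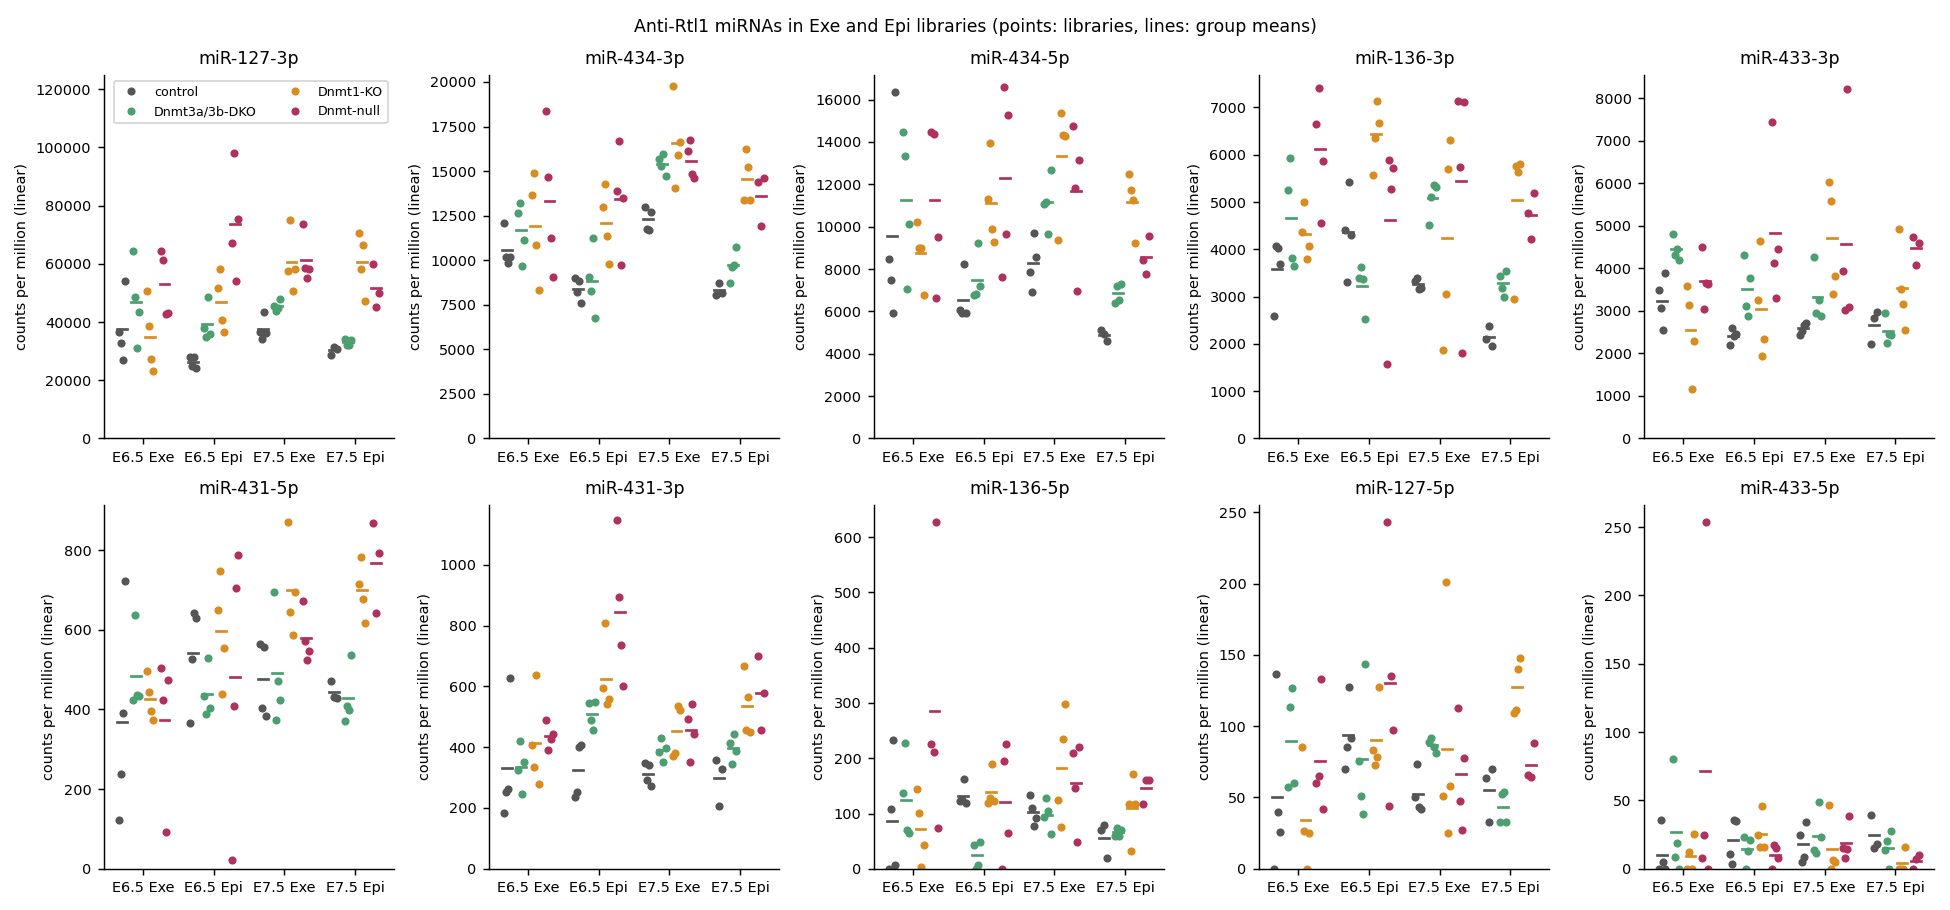
Level of each of the 10 anti-Rtl1 miRNAs in CPM (linear axes, 1 panel for each miRNA) in E6.5 and E7.5 Exe and Epi. Points are libraries coloured by genotype and lines are group means; in E6.5 Epi the *Dnmt*-null points of miR-127-3p (54250 to 98123 CPM) lie above all 4 control points (24120 to 27975 CPM).

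Together the 10 miRNAs took 4.55% to 14.3% of all miRNA counts in Exe and Epi libraries, and 33.7% to 57.6% of the counts of the whole locus. In controls the share was 6.55% ± 1.70 (SD, n = 4) in E6.5 Exe, 4.91% ± 0.40 (n = 4) in E6.5 Epi, 6.49% ± 0.50 (n = 4) in E7.5 Exe and 4.92% ± 0.19 (n = 3) in E7.5 Epi. The Exe and Epi control libraries overlapped at E6.5 and did not at E7.5. All 3 mutant groups of E6.5 Epi lay above the control libraries, at 8.09% ± 1.48 in *Dnmt1*-KO, 6.34% ± 0.89 in *Dnmt3a/3b*-DKO and 11.04% ± 2.53 in *Dnmt*-null (n = 4 each). So did those of E7.5 Exe, at 10.1% ± 0.996, 8.16% ± 0.23 and 9.99% ± 1.22 (n = 4 each). In E7.5 Epi the shares were 9.64% ± 1.19 in *Dnmt1*-KO (n = 4), 5.64% ± 0.18 in *Dnmt3a/3b*-DKO (n = 4) and 8.47% ± 0.97 in *Dnmt*-null (n = 3), again without overlap with the controls. *Dnmt3a/3b*-DKO was thus the mutant group nearest to control in these 3 sets, at 1.29, 1.26 and 1.15 times the control mean. Without miR-127-3p, the *Dnmt3a/3b*-DKO share in E6.5 Epi was 2.41% ± 0.28 against 2.29% ± 0.23 in control (n = 4 each) and overlapped, while the other mutant groups of these 3 sets still lay above the control libraries. In E6.5 Exe the shares of 6.35% ± 1.73, 8.003% ± 1.93 and 8.86% ± 2.02 (n = 4 each) overlapped with the control. Over all 25 groups ordered by mean share, only 3 of the 24 neighbouring pairs did not overlap: O48 below WT AG-haESCs, WT AG-haESCs below E6.5 Epi control, and E7.5 Epi control below E7.5 Epi *Dnmt3a/3b*-DKO. In bulk libraries such as these, fewer cells of a type and less RNA per cell cannot be told apart.

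**Figure D2:**
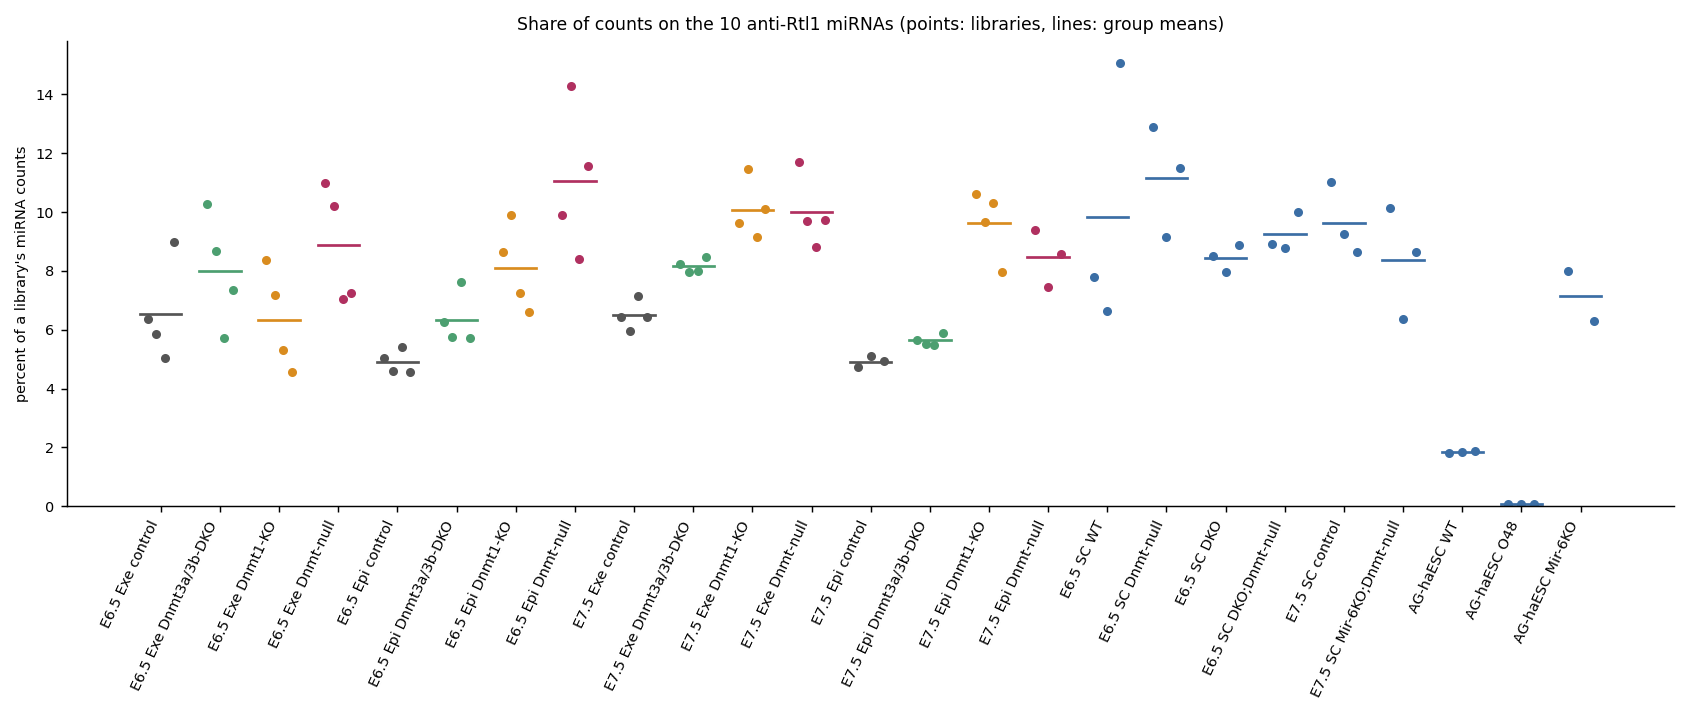
Percent of each library's miRNA counts that fell on the 10 anti-Rtl1 miRNAs (y axis, linear) in the 25 groups (x axis), with points for libraries and lines for group means. O48 AG-haESCs sit lowest at 0.0852% on average, WT AG-haESCs at 1.85%, and the embryo groups between 4.91% and 11.2%.

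Control embryos were compared between tissues and stages first. Here and below a miRNA was called when its adjusted p fell under 0.05 in edgeR's quasi-likelihood test with Benjamini-Hochberg adjustment over all miRNAs tested. Between Epi and Exe at E6.5, 0 of the 10 members were called (1 at an unadjusted p under 0.05, 0 with DESeq2), where 29.7% of all 558 miRNAs tested were called in either direction. Their median log2 fold change was 0.20, against 0.16 over all tested. The lowest adjusted p was that of miR-127-3p, with a log2 fold change of −0.45 (0.0504), and single members were called without Exe replicate 2 (miR-127-3p, 0.0326), 3 (miR-136-3p, 0.0433) or 4 (miR-431-5p, 0.0187). At E7.5, miR-434-3p was lower in Epi, at 8073, 8710 and 8186 CPM against 13010, 11759, 11678 and 12719 CPM in Exe. The libraries did not overlap. Its log2 fold change was −0.47 (SE 0.14, adjusted p = 0.014), as 1 of the 10 tested, where 22.2% of all miRNAs tested were called lower. This call held in only 1 of 7 fits that left out a control library, that without Exe replicate 2, and the log2 fold change ranged from −0.15 to −0.48 in the other 6. The median of the members was −0.11, against 0.00 over all tested.

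Between the stages, 0 members were called in Exe controls (0 at an unadjusted p under 0.05, 0 with DESeq2), where 14.2% of all miRNAs tested were called in either direction, with medians of 0.02 over the members and 0.08 over all. In Epi controls miR-136-3p fell from E6.5 (4419, 3311, 5422 and 4302 CPM) to E7.5 (2112, 2386 and 1955 CPM). Each E7.5 library was below each E6.5 library. The log2 fold change was −0.99 (SE 0.21, adjusted p = 0.00117), and it was the only member called lower, where 16.7% of all miRNAs tested were. The members' median here was −0.18, against −0.13 over all tested.

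In E6.5 Exe no member was called in any of the 6 comparisons of genotypes. Against control, 0 of the 9 tested members (all but miR-433-5p, which was filtered out) were called in *Dnmt1*-KO, in *Dnmt3a/3b*-DKO and in *Dnmt*-null, where 0%, 0.266% and 0.266% of 376 miRNAs tested were called higher. Their median log2 fold changes were −0.27, 0.16 and 0.17, against −0.06, −0.04 and −0.08 over all tested. At an unadjusted p under 0.05 the counts were 0, 0 and 1, and DESeq2 called 0, 0 and 1. Single members ranged from −0.69 (miR-127-5p) to 0.13 (miR-431-3p) on the log2 scale in *Dnmt1*-KO, from −0.20 (miR-431-3p) to 0.63 (miR-127-5p) in *Dnmt3a/3b*-DKO and from −0.22 (miR-431-5p) to 1.48 (miR-136-5p) in *Dnmt*-null, with lowest adjusted p of 0.543, 0.942 and 0.209. miR-127-3p ranged from 26968 to 54185 CPM in the 4 control libraries and from 42735 to 64560 CPM in *Dnmt*-null, and the groups overlapped. Between the mutants the members called were also 0, with 0% of all miRNAs tested called higher in *Dnmt1*-KO against *Dnmt3a/3b*-DKO, 0% in *Dnmt*-null against *Dnmt1*-KO and 0% in *Dnmt*-null against *Dnmt3a/3b*-DKO. Unadjusted, 1, 0 and 0 passed, and DESeq2 called 0 in each. Medians of the members were −0.32, 0.45 and 0.15, against −0.03, −0.03 and −0.05 over all tested.

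In E6.5 Epi, miR-127-3p, miR-431-3p and miR-434-5p rose in *Dnmt*-null embryos. miR-127-3p was at 27975, 25029, 27882 and 24120 CPM in control and at 67062, 98123, 54250 and 75238 CPM in *Dnmt*-null, so that the lowest mutant library stood well above the highest control. Its log2 fold change was 1.36 (SE 0.20, adjusted p = 7.38e-05), and it was called in each of the 8 fits that left out a library. miR-431-3p was at 238, 253, 402 and 408 CPM in control and at 1149, 895, 735 and 601 CPM in *Dnmt*-null, again without overlap. The rise was 1.22 on the log2 scale (SE 0.40, adjusted p = 0.0462), and the call was kept only without *Dnmt*-null replicate 1 or 4 and lost in the other 6 fits (adjusted p from 0.0539 to 0.147). miR-434-5p, which ranged from 5935 to 8214 CPM in control and from 7626 to 16584 CPM in *Dnmt*-null, overlapped. On the log2 scale it rose by 0.78 (SE 0.25, adjusted p = 0.0437), a call lost without *Dnmt*-null replicate 2 or 4 or control replicate 1, 2 or 4 (0.111 to 0.151). These were 3 of the 9 tested members, where 8.07% of 409 miRNAs tested were called higher. The number called was 2 with DESeq2 and 5 with a filter on a mean count of 10. It was 1 with RLE normalization, with no filter, in a fit of only the groups compared and with same-numbered libraries as blocks.

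The other abundant members of E6.5 Epi did not pass in *Dnmt*-null. miR-433-3p was at 2201, 2607, 2413 and 2454 CPM in control and at 7449, 4122, 3316 and 4449 CPM in *Dnmt*-null (log2 fold change 0.87, adjusted p = 0.0746). miR-434-3p had a log2 fold change of 0.55 (adjusted p = 0.0828). Without *Dnmt*-null replicate 3 these became 1.01 (adjusted p = 0.0382) and 0.68 (adjusted p = 0.0305), so both were then called. miR-136-3p and miR-431-5p did not move the same way, with log2 fold changes of −0.05 and −0.29, and *Dnmt*-null replicate 1 was lowest in both, at 1569 and 22.1 CPM. Over the members the median was 0.55, against −0.14 over all tested. Beside these values, the summed miR-302 cluster list was at 48473 to 100114 CPM in *Dnmt*-null and at 130389 to 200354 CPM in control, all 5 markers being detected, and the summed trophoblast list at 6097 to 13019 and 5747 to 26338 CPM. The summed miR-290 cluster list, 5 miRNAs of pluripotent cells, was at 18788 to 39577 CPM in *Dnmt*-null, below the 59287 to 63256 CPM of control. The decidual list was at 106 to 995 CPM in *Dnmt*-null and 82.8 to 123 CPM in control, and the endoderm list at 1110 to 2952 and 745 to 1768 CPM. Both lists overlapped. The part of cell composition and of depth in the members' values was not tested.

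In E6.5 Epi *Dnmt1*-KO, 0 of 9 members were called against control (4 at an unadjusted p under 0.05, 1 with DESeq2), where 0.733% of all miRNAs tested were called higher. miR-127-3p stood at 51819, 58085, 40665 and 36439 CPM, each above the 4 control libraries. This was a log2 fold change of 0.79 (adjusted p = 0.0569), and without *Dnmt1*-KO replicate 4 it was 0.92 (adjusted p = 0.0153). In *Dnmt3a/3b*-DKO, 0 of 9 were called (2 unadjusted, 1 with DESeq2), where 3.42% were called higher. miR-136-5p, the minor arm of its hairpin, was at 42.4, 0, 6.45 and 47.8 CPM there and at 122, 125, 163 and 120 CPM in control. Over the members the medians were 0.49 and 0.01 in the 2 mutants, against −0.01 and −0.12 over all tested. All 3 mutants were compared with the same control libraries.

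Between mutants of E6.5 Epi, miR-127-3p was higher in *Dnmt*-null than in *Dnmt3a/3b*-DKO (37805, 34984, 48607 and 35799 CPM) without overlap. The log2 fold change was 0.83 (SE 0.20, adjusted p = 0.0426), and it was the 1 member called, where 0.978% of all miRNAs tested were called higher. The call was kept only without *Dnmt*-null replicate 3 or *Dnmt3a/3b*-DKO replicate 3 and was lost in the other 6 fits that left out a library (0.0522 to 0.220). Beside it, the summed miR-302 cluster list was at 48473 to 100114 CPM in *Dnmt*-null and at 109506 to 158754 CPM in *Dnmt3a/3b*-DKO, without overlap. The part of this list in the miR-127-3p values was not tested. In *Dnmt1*-KO against *Dnmt3a/3b*-DKO 0 members were called (4 unadjusted, 1 with DESeq2), where 0% of all tested were called higher. In *Dnmt*-null against *Dnmt1*-KO 0 were called (1 unadjusted, 0 with DESeq2), where 1.22% were. Without *Dnmt*-null replicate 3, miR-127-3p was called there, at 0.70 (adjusted p = 0.0401). The members' medians were 0.58, 0.45 and 0.07 in these 3 comparisons, against −0.05, 0.02 and −0.09 over all tested.

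In E7.5 Exe, miR-127-3p and both miR-434 arms rose in *Dnmt1*-KO, and miR-127-3p in *Dnmt*-null. miR-127-3p was at 36649, 34070, 43333 and 36156 CPM in control, at 57641, 75192, 50797 and 58284 CPM in *Dnmt1*-KO and at 73654, 58057, 58600 and 55154 CPM in *Dnmt*-null. Neither mutant overlapped with control. The log2 fold changes were 0.75 (SE 0.13, adjusted p = 0.00129) and 0.73 (SE 0.13, adjusted p = 0.000735), and both calls were kept in every fit that left out a library of the groups compared. miR-434-3p was at 19768, 14069, 15890 and 16649 CPM in *Dnmt1*-KO, above the 4 control libraries (11678 to 13010 CPM). The rise of 0.50 on the log2 scale (SE 0.14, adjusted p = 0.0396) did not pass without *Dnmt1*-KO replicate 1 or without any of the control libraries (0.0598 to 0.157). miR-434-5p was at 9362, 15368, 14321 and 14292 CPM in *Dnmt1*-KO and at 7863, 6901, 9703 and 8582 CPM in control, so that 1 mutant library overlapped. On average it rose by 0.73 on the log2 scale (SE 0.17, adjusted p = 0.0126), and it was not called without *Dnmt1*-KO replicate 2 (0.0546) or control replicate 2 (0.0505).

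Of the 10 tested members, 3 were thus called higher in E7.5 Exe *Dnmt1*-KO (6 at an unadjusted p under 0.05, 3 with DESeq2), where 4.69% of 597 miRNAs tested were. In *Dnmt*-null 1 was called higher (6 unadjusted, 5 with DESeq2), where 7.2% were. In *Dnmt3a/3b*-DKO 0 were called (1 unadjusted, 0 with DESeq2), where 3.02% were, although all 4 libraries of miR-127-3p (43933 to 48055 CPM) were above the control libraries. Medians of the members were 0.67, 0.53 and 0.30 in *Dnmt1*-KO, *Dnmt*-null and *Dnmt3a/3b*-DKO, against −0.09, −0.05 and −0.09 over all tested. In *Dnmt*-null, miR-136-3p ranged from 1802 to 7136 CPM and miR-434-5p from 6977 to 14742 CPM, both lowest in replicate 4. Without that library both were called, at log2 fold changes of 0.95 (adjusted p = 0.0122) and 0.60 (adjusted p = 0.0116), and miR-433-3p was called without *Dnmt*-null replicate 2 (0.0447) or 3 (0.0328). Beside these values, the summed miR-302 cluster list in E7.5 Exe was at 33368 to 45944 CPM for control, 17252 to 27413 for *Dnmt*-null, 10428 to 37250 for *Dnmt1*-KO and 23667 to 37563 for *Dnmt3a/3b*-DKO. The endoderm list was at 3076 to 5221 CPM for control and 1694 to 7995 for *Dnmt*-null, and the trophoblast list at 39422 to 49862 CPM for control, 30352 to 52246 for *Dnmt*-null and 30082 to 43437 for *Dnmt1*-KO. Their part in the members' values was not tested.

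Between the mutants of E7.5 Exe, miR-127-3p was higher in *Dnmt*-null than in *Dnmt3a/3b*-DKO, with a log2 fold change of 0.49 (adjusted p = 0.0424), the 1 member called, where 1.51% of all miRNAs tested were called higher. That call was lost in each of the 8 fits that left out a library (0.0535 to 0.209). In *Dnmt1*-KO against *Dnmt3a/3b*-DKO 0 members were called (2 unadjusted, 1 with DESeq2), where 0.335% were, and without *Dnmt1*-KO replicate 3 miR-127-3p was called, at 0.58 (adjusted p = 0.0291). In *Dnmt*-null against *Dnmt1*-KO 0 were called (0 unadjusted, 0 with DESeq2), where 0.67% were. Over the members the medians were 0.21, 0.32 and −0.08, against −0.00, −0.04 and 0.02 over all tested.

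In E7.5 Epi, miR-127-3p, both miR-434 arms and miR-136-3p rose in *Dnmt1*-KO and in *Dnmt*-null. miR-127-3p was at 28722, 31344 and 30744 CPM in control, at 70706, 58118, 66306 and 47288 CPM in *Dnmt1*-KO and at 59835, 50083 and 45185 CPM in *Dnmt*-null, with neither mutant overlapping the control. The log2 fold changes were 0.82 (SE 0.13, adjusted p = 0.000127) and 0.54 (SE 0.13, adjusted p = 0.00413). miR-434-5p was at 5103, 4934 and 4597 CPM in control, 12487, 11736, 11274 and 9214 CPM in *Dnmt1*-KO and 8425, 9572 and 7765 CPM in *Dnmt*-null. This was the member with the lowest adjusted p in *Dnmt1*-KO, at 1.01 on the log2 scale (SE 0.12, adjusted p = 8.58e-06), and at 0.58 (SE 0.12, adjusted p = 0.00121) in *Dnmt*-null. miR-136-3p was at 2112, 2386 and 1955 CPM in control, 2955, 5766, 5630 and 5812 CPM in *Dnmt1*-KO and 4775, 5196 and 4213 CPM in *Dnmt*-null. Its log2 fold changes were 1.04 (SE 0.18, adjusted p = 0.000296) and 0.90 (SE 0.18, adjusted p = 0.000951). miR-434-3p, the partner arm of miR-434-5p, rose by 0.62 (SE 0.10, adjusted p = 0.00023) and 0.48 (SE 0.11, adjusted p = 0.00214). These 8 calls were kept in every fit that left out a library of the groups compared.

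Both miR-431 arms were called in E7.5 Epi *Dnmt*-null as well. miR-431-5p was at 473, 430.5 and 429 CPM in control and 869, 793 and 643 CPM in *Dnmt*-null, and miR-431-3p at 358, 208 and 328 CPM and 700, 580 and 457 CPM. The groups did not overlap for either arm. The log2 fold changes were 0.55 (SE 0.21, adjusted p = 0.0498) and 0.72 (SE 0.27, adjusted p = 0.0461). The miR-431-5p call was lost in each of the 6 fits that left out a library (0.0567 to 0.137), and that of miR-431-3p without *Dnmt*-null replicate 1 or 2 or control replicate 2 or 3 (0.0676 to 0.210). In all, 4 of 10 tested members were called higher in *Dnmt1*-KO, where 8.28% of 652 miRNAs tested were, and 6 in *Dnmt*-null, where 16.3% were. The members' medians were 0.71 and 0.55, against −0.15 and −0.19 over all tested. miR-433-5p had 0 counts in 3 of the 4 *Dnmt1*-KO libraries and 16.1 CPM in replicate 4, against 39.1, 15.4 and 18.5 CPM in control, and was called lower only in the fit without that library (0.0283).

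In E7.5 Epi *Dnmt3a/3b*-DKO, miR-434-5p alone was called against control, at 6407, 7190, 6561 and 7291 CPM, each above the control libraries. The rise was 0.41 on the log2 scale (SE 0.11, adjusted p = 0.0325), as 1 of 10 tested members, where 5.98% of all tested were called higher. The call was kept without *Dnmt3a/3b*-DKO replicate 1 or 3 and lost in the other 5 fits that left out a library (0.0593 to 0.156), and DESeq2 did not make it. miR-127-3p was at 34015, 32192, 32148 and 33800 CPM, at 0.04 on the log2 scale against control (SE 0.12, adjusted p = 0.946). The members' median was 0.09, against 0.02 over all tested.

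*Dnmt1*-KO exceeded *Dnmt3a/3b*-DKO in E7.5 Epi for 6 of 10 members, where 3.99% of all miRNAs tested were called higher. They were miR-127-3p (log2 fold change 0.78, adjusted p = 0.000392), miR-127-5p (1.46, 0.0206), miR-136-3p (0.51, 0.0446), miR-431-5p (0.61, 0.0365), miR-434-3p (0.49, 0.00207) and miR-434-5p (0.61, 0.00104). miR-127-5p, the minor arm of its hairpin, was at 110, 112, 140 and 148 CPM in *Dnmt1*-KO and at 32.9, 52.3, 53.8 and 33.1 CPM in *Dnmt3a/3b*-DKO. Its call was lost without *Dnmt3a/3b*-DKO replicate 4 (0.0598). That of miR-136-3p was kept only without replicate 1 of either group and lost in the other 6 fits (0.0700 to 0.138), and that of miR-431-5p was lost without *Dnmt1*-KO replicate 1, 2 or 3 or *Dnmt3a/3b*-DKO replicate 2 or 3 (0.0606 to 0.107). miR-433-3p became a call without *Dnmt1*-KO replicate 4 (0.0498) or *Dnmt3a/3b*-DKO replicate 1 (0.0398).

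*Dnmt*-null exceeded *Dnmt3a/3b*-DKO in E7.5 Epi for 4 members, where 6.44% of all tested were called higher: miR-127-3p (log2 fold change 0.50, adjusted p = 0.00766), miR-431-5p (0.69, 0.0186), miR-433-3p (0.68, 0.0183) and miR-434-3p (0.34, 0.0255). The last 3 calls were each lost in 2 to 4 of the 7 fits that left out a library. For miR-431-5p these were the fits without *Dnmt*-null replicate 1 or *Dnmt3a/3b*-DKO replicate 2 or 3 (0.0510 to 0.0610), for miR-433-3p those without *Dnmt3a/3b*-DKO replicate 2 or 3 (0.0507 and 0.0512), and for miR-434-3p those without any of *Dnmt*-null replicates 1 and 2 and *Dnmt3a/3b*-DKO replicates 2 and 3 (0.0550 to 0.0850). miR-136-3p became a call without *Dnmt3a/3b*-DKO replicate 1 (0.0409).

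Against *Dnmt1*-KO, *Dnmt*-null E7.5 Epi had 1 member called lower, miR-434-5p (log2 fold change −0.43, adjusted p = 0.0186), where 5.37% of all tested were called lower. It was not called without *Dnmt*-null replicate 3 (0.0698), and miR-127-3p was called lower without *Dnmt*-null replicate 1 (0.0388) or *Dnmt1*-KO replicate 4 (0.0213). Medians of the members were 0.56, 0.45 and −0.04 for *Dnmt1*-KO against *Dnmt3a/3b*-DKO, *Dnmt*-null against *Dnmt3a/3b*-DKO and *Dnmt*-null against *Dnmt1*-KO, and those over all tested were −0.21, −0.19 and −0.03. Beside the E7.5 Epi results, the summed miR-302 cluster list was at 202279 to 212606 CPM for control, 105333 to 164935 for *Dnmt*-null, 135939 to 200375 for *Dnmt1*-KO and 193250 to 203244 for *Dnmt3a/3b*-DKO. The summed trophoblast list was at 1952 to 2275, 4127 to 8445, 2887 to 3217 and 2716 to 5597 CPM in the same order. That of the miR-290 cluster was at 14449 to 14924, 23112 to 29600, 17313 to 26654 and 15585 to 21657 CPM, and that of decidual miRNAs at 277 to 413, 85.7 to 159.8, 135 to 405 and 338 to 646 CPM. The endoderm list was at 3459 to 4174, 2334 to 3042, 3667 to 4660 and 4581 to 5719 CPM in that order. The part of these lists and of depth in the members' values was not tested.

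**Figure D3:**
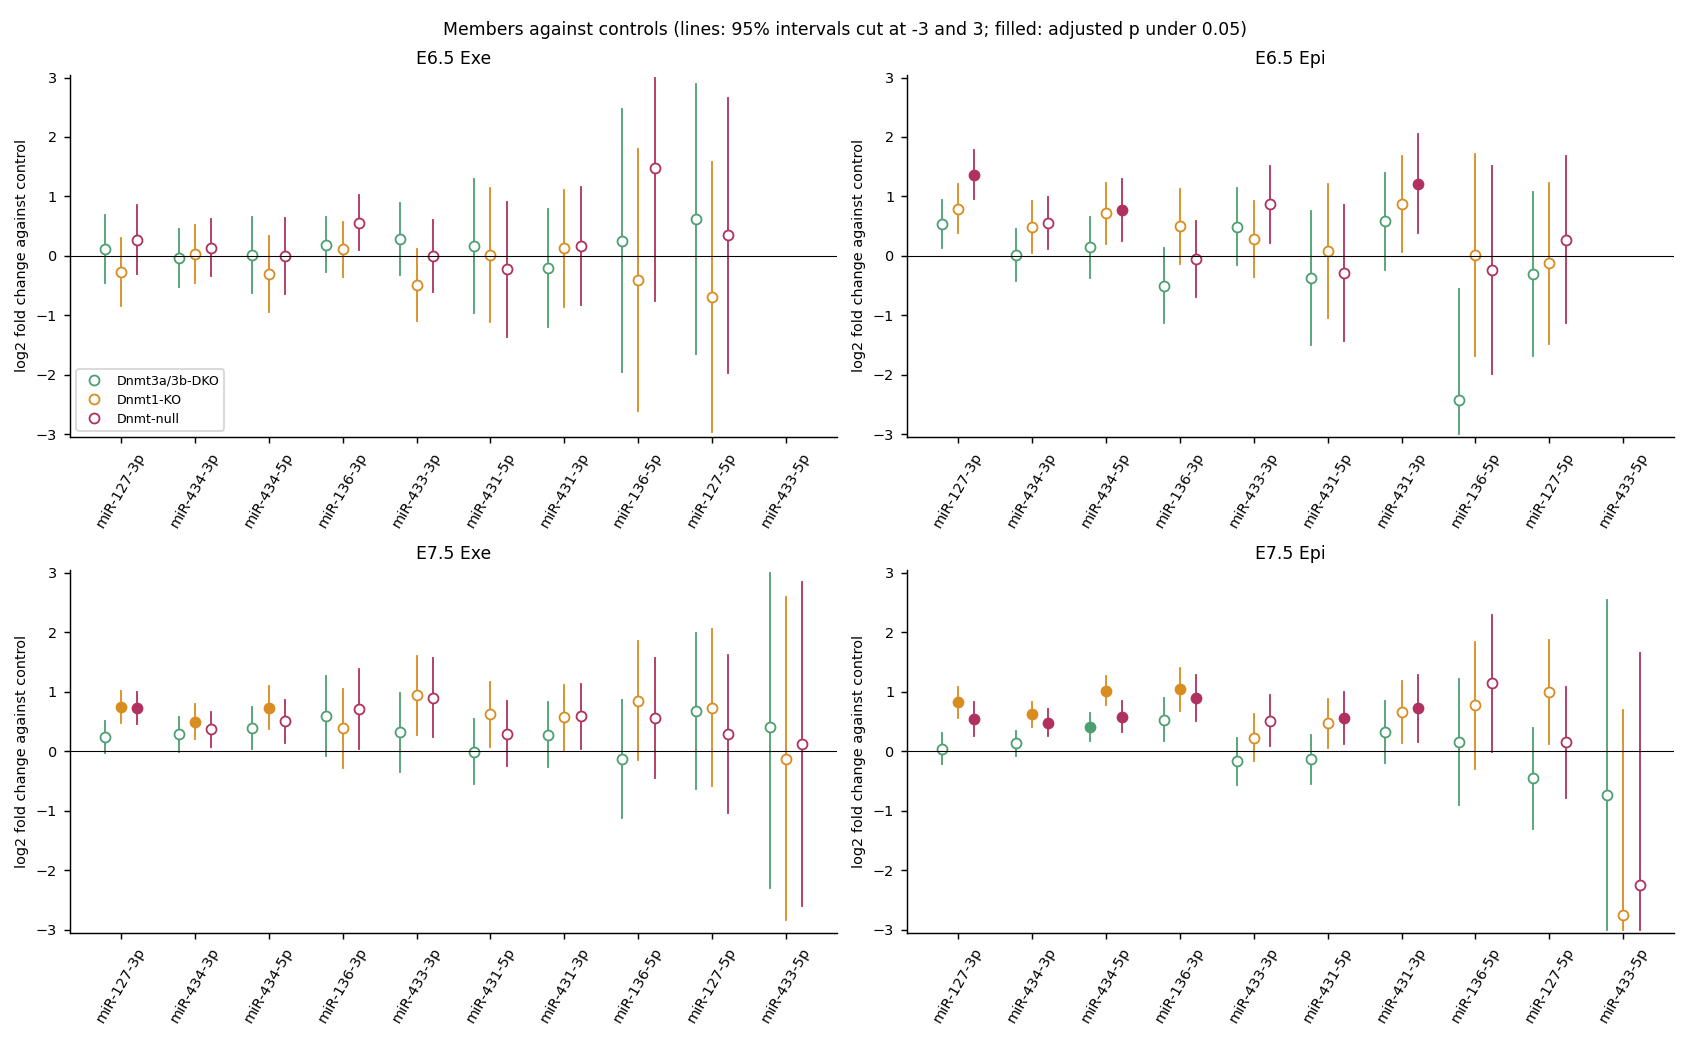
Log2 fold change against control (y axis, bars are 95% intervals cut off at ±3) of each anti-Rtl1 miRNA (x axis) in *Dnmt1*-KO, in *Dnmt3a/3b*-DKO and in *Dnmt*-null, with a panel for each tissue and stage. Filled points have an adjusted p under 0.05 in edgeR: E6.5 Exe has 0, 0 and 0 of them, E6.5 Epi 0, 0 and 3, E7.5 Exe 3, 0 and 1, E7.5 Epi 4, 1 and 6.

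Whether a genotype acted differently in Epi and in Exe was tested as an interaction in a fit of both tissues. At E6.5, 0 of 9 members were called for *Dnmt1*-KO, for *Dnmt3a/3b*-DKO and for *Dnmt*-null (2, 1 and 2 at an unadjusted p under 0.05, and 0, 0 and 1 with DESeq2), where 0%, 0% and 0% of all miRNAs tested were called with a larger effect in Epi. The members' medians of the Epi effect minus the Exe effect were 0.55, −0.10 and 0.09, against −0.09, −0.28 and −0.43 over all tested. At E7.5 the *Dnmt1*-KO effect was larger in Epi for miR-434-3p, by 0.63 on the log2 scale (adjusted p = 0.0296), and for miR-434-5p, by 0.77 (adjusted p = 0.0375), where 5.63% of all tested were called. Both calls were absent with DESeq2, and they were lost in 12 and 13 of the 15 fits that left out a library. The first was kept only without Exe *Dnmt1*-KO replicate 1 or 4 or Exe control replicate 1, the second without Exe *Dnmt1*-KO replicate 2 or Exe control replicate 1. Without Exe *Dnmt1*-KO replicate 2 miR-127-3p was called (0.0252), and without replicate 4 miR-136-3p was (0.0438). The median of the members was 0.58, against 0.59 over all tested. Both called values thus lay close to the median of all miRNAs in that fit. For *Dnmt3a/3b*-DKO and *Dnmt*-null 0 of 10 members were called (0 and 0 unadjusted, 0 and 0 with DESeq2), where 4.12% and 5.91% were, with medians of 0.05 and 0.33 against 0.25 and 0.21 over all.

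The ratio of the 5p to the 3p arm of a hairpin, taken within a library, does not depend on normalization between libraries. Among control embryos the mean log2 ratio lay between −8.14 and −10.1 for *Mir127*, between −5.0 and −6.6 for *Mir136* and between −0.25 and −0.77 for *Mir434*. In E6.5 Epi the *Mir431* ratio was 0.74 ± 0.21 (SD, n = 4) in control, −0.08 ± 0.18 in *Dnmt1*-KO, −0.22 ± 0.29 in *Dnmt3a/3b*-DKO and −1.48 ± 2.51 in *Dnmt*-null (n = 4 each). The *Dnmt*-null mean rested on replicate 1, at −5.13. *Dnmt*-null and control did not overlap (exact permutation test, two-sided p = 0.0286, the smallest possible with 4 against 4). In E6.5 Exe control it was 0.03 ± 0.48 (n = 4), which did not overlap with Epi control either (exact p = 0.0286). No ratio passed after adjustment over hairpins and comparisons, the lowest adjusted p being 0.429. With 0.0286 as the smallest possible p, 1 hairpin alone could not pass this adjustment. It therefore cannot decide whether an arm ratio changed.

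**Figure D4:**
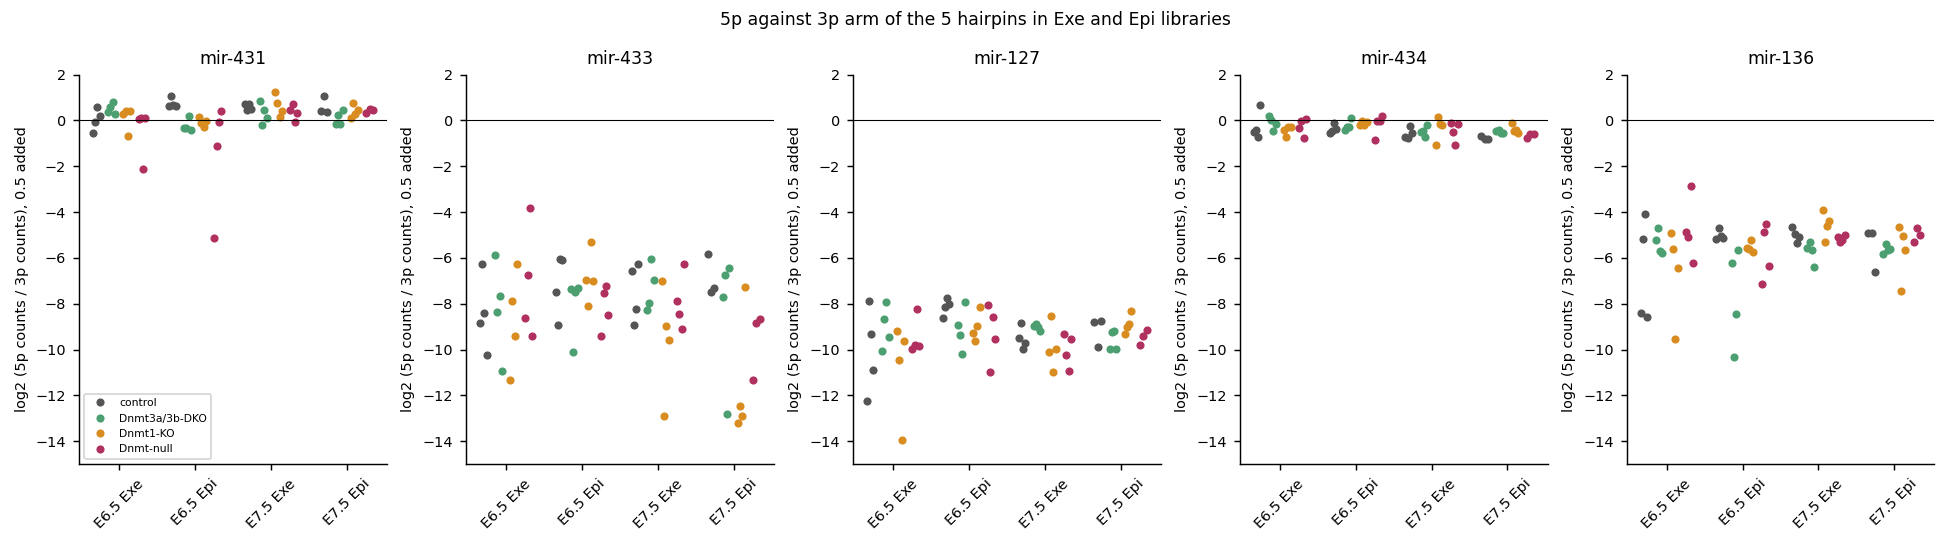
Log2 ratio of 5p to 3p counts (y axis, 0.5 added to each count) for the 5 hairpins, with points for Exe and Epi libraries and a line at 0. *Mir434* stays near 0, *Mir127* lies lowest together with *Mir433*, and 1 E6.5 Epi *Dnmt*-null library of *Mir431* stands apart at −5.13.

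In AG-haESCs the level of these miRNAs depended on the line. miR-127-3p was at 12493, 12678 and 12811 CPM in WT and at 551, 594 and 556 CPM in O48. miR-434-3p was at 1927, 1929 and 1907 CPM in WT and at 108, 89.1 and 103 CPM in O48. The WT libraries agreed closely, and O48 was more than 10 times lower throughout these abundant arms. The log2 fold changes of O48 against WT were −4.45 (SE 0.10, adjusted p = 1.49e-07) for miR-127-3p, −4.23 for miR-434-3p, −4.42 for miR-434-5p, −4.33 for miR-136-3p, −4.52 for miR-433-3p and −5.29 for miR-431-5p. Of the 10 members, 9 were called lower, where 11.5% of 773 miRNAs tested were. miR-136-5p, at 7.74, 8.38 and 3.93 CPM in WT and 1.48, 0 and 0 CPM in O48, was the exception (adjusted p = 0.179). It was called without O48 replicate 1 (0.0379). The calls of the rarer arms were less firm: miR-433-5p (adjusted p = 0.0405) was called only without O48 replicate 2 and lost in the other 5 fits that left out a WT or O48 library (0.102 to 0.139), miR-127-5p (0.0194) was lost without O48 replicate 2 or any WT library (0.0598 to 0.0830), and miR-431-3p was lost without WT replicate 2 (0.0507). Over the members the median was −4.37, against −0.28 over all tested. Beside these values, the endoderm list was at 1047 to 1157 CPM in O48 and 3054 to 3348 CPM in WT. The trophoblast list was at 2580 to 3621 and 4972 to 5120 CPM. The part of these lists in the members' values was not tested. The labels do not state whether O48 lacks the IG DMR, as the study's text has it for the cells that received the deletions, and the part of such a deletion in these values was not tested. The other miRNAs of the locus went the same way, with 53 of 79 tested called lower and a median of −4.25.

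The libraries labelled Mir-6KO had high levels of these miRNAs, including the targeted miR-127-3p. It was at 44853 and 35728 CPM, above the WT AG-haESCs and within the range of embryos. miR-434-3p was at 15406 and 11396 CPM and miR-136-3p at 4534 and 4437 CPM. Against O48 the log2 fold change was 5.64 (SE 0.11, adjusted p = 3.08e-08) for miR-127-3p and 6.55 for miR-434-3p, and 9 of 10 members were called higher, where 19.9% of all tested were. miR-433-5p, at 11.2 and 3.40 CPM, was the exception (adjusted p = 0.399), and miR-127-5p, at 33.5 and 16.5 CPM, was not called without O48 replicate 2 (0.0618). The members' median was 6.27, against −0.82 over all tested. Relative to the summed counts of the other 8 arms, miR-127-3p had a log2 ratio of 0.37 ± 0.03 (n = 2) in the libraries labelled Mir-6KO and of 0.996 ± 0.03 (n = 3) in O48, without overlap (exact permutation test, two-sided p = 0.2, the smallest possible).

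The targeted arm was therefore not absent from the libraries labelled Mir-6KO, and their marker values differed from those of the other AG-haESC lines. Beside the miR-302 cluster values above, the summed miR-290 cluster list was at 12117 and 10546 CPM in them, 58686 to 61045 CPM in WT, 67214 to 79297 CPM in O48 and 16128 to 16448 CPM in E7.5 SC control. The log2 CPM of all miRNAs correlated with E7.5 SC control libraries at r = 0.910 to 0.929, with E6.5 SC DKO at 0.887 to 0.904, with Mir-6KO;*Dnmt*-null SC embryos at 0.874 to 0.911, with WT AG-haESCs at 0.836 to 0.853 and with O48 at 0.773 to 0.789, as a description across miRNAs, which are not independent. No direction can be drawn for the deletion from these 2 libraries, and without them the lines compared are O48 and WT only.

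**Figure D5:**
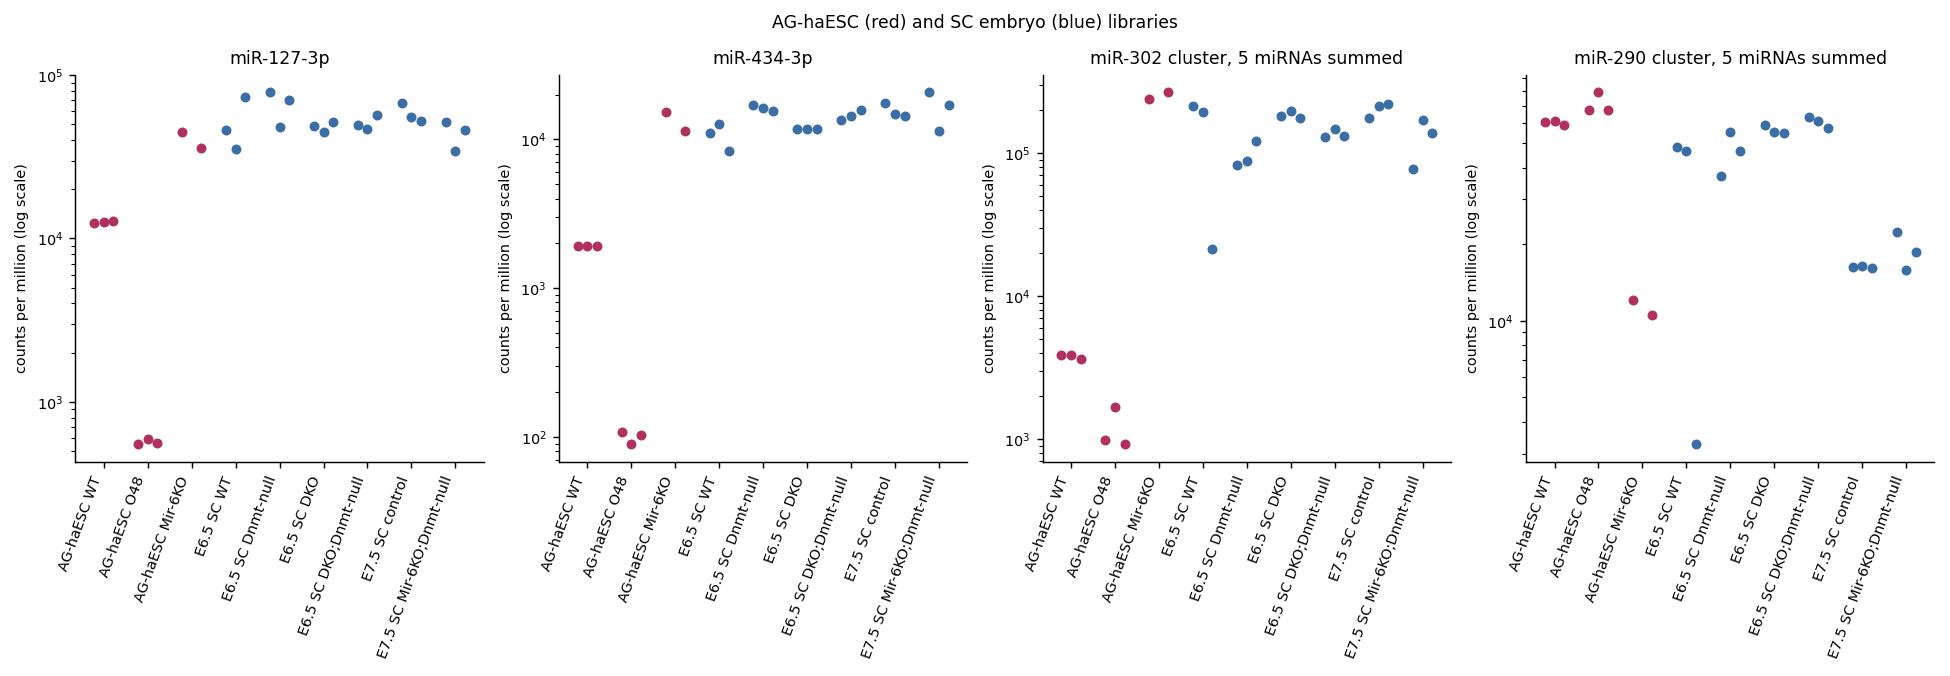
Level in CPM (log axis) of miR-127-3p, miR-434-3p, the summed miR-302 cluster list and the summed miR-290 cluster list in AG-haESC libraries (red) and SC embryo libraries (blue), with 1 point for each library. The libraries labelled Mir-6KO lie at 35728 and 44853 CPM for miR-127-3p and at 239331 and 268002 CPM for the miR-302 cluster list, away from the other AG-haESC libraries.

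In E6.5 SC embryos, loss of the *Dnmt* genes or of the DMRs gave no called member. miR-127-3p was at 46077, 35271 and 73827 CPM in WT, 78696, 48134 and 70051 CPM in *Dnmt*-null and 48622, 44802 and 51993 CPM in DKO. WT replicate 3, which lacked the miR-302 level of its group, gave the highest WT value here and 62719 CPM of miR-434-5p, against 10011 and 8369 CPM in the other WT libraries. Its miR-431-5p was low, at 42.6 CPM against 237 and 404 CPM. Of 10 members 0 were called in *Dnmt*-null (0 at an unadjusted p under 0.05, 0 with DESeq2), where 1.52% of 461 miRNAs tested were called higher, and 0 in DKO (0 unadjusted, 0 with DESeq2), where 0% were. Without WT replicate 3 the members called remained 0 in both comparisons, while the log2 fold change of miR-434-5p went from −1.36 to 0.47 in *Dnmt*-null and from −1.67 to 0.28 in DKO, and that of miR-127-3p from −0.01 to 0.48 and from −0.36 to 0.25. The direction of these values thus depended on 1 library. With all libraries the members ranged from −1.36 (miR-434-5p) to 0.91 (miR-431-5p) in *Dnmt*-null and from −1.67 (miR-434-5p) to 0.63 (miR-433-5p) in DKO. The members' medians with all libraries were 0.37 and 0.07, against 0.06 and 0.10 over all tested.

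In DKO;*Dnmt*-null against DKO SC embryos, miR-127-3p was at 49568, 46816 and 57351 CPM, overlapping with DKO. miR-434-3p was at 13513 to 15767 CPM, above the 3 DKO libraries (11692 to 11810 CPM), at 0.21 on the log2 scale (SE 0.09, adjusted p = 0.0704). Of 10 members 0 were called (2 unadjusted, 0 with DESeq2), where 18.7% of 603 miRNAs tested were called higher, and the medians were 0.05 and −0.05. Without DKO;*Dnmt*-null replicate 1, miR-434-3p (0.00865) and miR-136-5p (0.0339) were called, and without replicate 2 miR-136-5p was (0.0469). The DKO;*Dnmt*-null libraries came in a second table of 895 miRNAs, so that table and genotype cannot be told apart.

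In E7.5 SC embryos miR-127-3p was lower in Mir-6KO;*Dnmt*-null than in control. It was at 51921, 34218 and 46054 CPM against 67386, 55158 and 52288 CPM, so that the groups did not overlap, although the highest mutant and the lowest control library were close. The log2 fold change was −0.66 (SE 0.12, adjusted p = 0.0167), and it was the only member called lower, where 0.513% of 585 miRNAs tested were. The call was kept only without control replicate 2 and lost in the other 5 fits that left out a library (0.0549 to 0.142). The next lowest adjusted p was that of miR-136-3p, with a log2 fold change of −0.40 (0.276). miR-434-3p was at 20798, 11466 and 17012 CPM in Mir-6KO;*Dnmt*-null and 17488, 14806 and 14369 CPM in control, which overlapped. The median of the members was −0.21, against −0.04 over all tested. The summed miR-302 cluster list was at 77546 to 170777 CPM in Mir-6KO;*Dnmt*-null and at 178106 to 220309 CPM in control, and the endoderm list at 3852 to 4588 and 1545 to 3538 CPM, neither overlapping. The part of these lists in the members' values was not tested.

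Within the anti-Rtl1 miRNAs, the log2 ratio of miR-127-3p to the other 8 arms was 0.16 ± 0.08 in Mir-6KO;*Dnmt*-null and 0.61 ± 0.04 in control SC embryos (n = 3 each). The libraries lay at 0.0758, 0.229 and 0.189 against 0.653, 0.565 and 0.617 (exact permutation test, two-sided p = 0.1, the smallest possible with 3 against 3, adjusted p = 0.16). In *Dnmt*-null embryos that carried no miRNA deletion the same ratio was higher than in control in E6.5 Epi, at 0.995 ± 0.13 against 0.21 ± 0.10 (n = 4 each, exact p = 0.0286, adjusted p = 0.16). With so few libraries no ratio could fall under 0.05 after adjustment, so the adjusted values cannot decide. The ratio overlapped with control in E7.5 Epi, at 0.65 ± 0.16 and 0.68 ± 0.05 (n = 3 each, exact p = 0.7). In Exe the means were higher than in control but overlapped, at 0.58 against 0.41 at E6.5 and 0.67 against 0.45 at E7.5. E6.5 SC embryos overlapped too. *Dnmt*-null was at 0.656, 0.159 and 0.645 against 0.534, 0.180 and −0.059 in WT. DKO;*Dnmt*-null was at 0.327, 0.193 and 0.430 against 0.417, 0.364 and 0.503 in DKO. In Mir-6KO;*Dnmt*-null embryos the miRNA deletion lay on the sperm-derived chromosomes. Its part could not be told apart from the loss of the *Dnmt* genes, which these embryos also carry.

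The rest of the locus gives the setting of these values. Of its other tested miRNAs, 7 of 68 were called higher in E6.5 Epi *Dnmt*-null, 8 of 82 and 13 of 82 in E7.5 Exe *Dnmt1*-KO and *Dnmt*-null, and 22 of 86 and 28 of 86 in E7.5 Epi *Dnmt1*-KO and *Dnmt*-null. Their median log2 fold changes there were 0.28, 0.50, 0.36, 0.47 and 0.54, each below the members' median. In the E7.5 SC comparison 0 of 82 were called higher and 1 lower, with a median of 0.05. Over the 62 Exe and Epi libraries, the 5 miRNAs whose log2 CPM followed the members' mean most closely, among 648 compared, were miR-3071-3p (Pearson r = 0.73, Spearman rho = 0.71), miR-485-3p (r = 0.68), miR-409-5p (r = 0.65), miR-541-5p (r = 0.62) and miR-381-3p (r = 0.62). Of the 20 with the highest r, 19 came from the locus, which held 81 of those compared. These are descriptions over libraries that share tissue, genotype and depth. Among the members, miR-127-3p and miR-434-5p followed each other most closely (r = 0.81), and miR-431-5p and the sparse miR-433-5p least (r = −0.37).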

How the data were processed

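Small RNA was sequenced by CAS-seq, in which Cas9 cuts adapter products before amplification; no molecular identifiers are described, so the CPM value of 3 counts covers counting error only, whereas the SEs and intervals of fold changes include the spread between libraries. The authors trimmed reads with fastp 0.20.1 (15 to 40 bases), mapped the rest to GRCm38 and then to miRBase 21 with Bowtie 1.2.1.1, allowing 2 templated bases less or more at the 3′ end, and deposited counts per mature miRNA; of the 91 libraries, 88 could be placed in a group. The study tested counts with DESeq2 1.30.1 with cutoffs of 0.5 for the absolute log2 fold change and 0.05 for the unadjusted p.

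Here counts were tested with edgeR 4.0.16 in R 4.3.3 (TMM normalization, filterByExpr with a count minimum of 10, quasi-likelihood F test, Benjamini-Hochberg adjustment), in 1 fit for each tissue and stage and 1 for each set of lines or SC embryos. Ratios (0.5 added to each count) were compared by exact permutation tests in scipy 1.17.1, and DESeq2 1.42.0 was an alternative. In simulated data of only the compared groups, with 200 miRNAs changed, the test recovered 24.5% of 2-fold and 68.7% of 4-fold changes for E7.5 Epi *Dnmt*-null against control. For E6.5 Exe *Dnmt*-null against control it recovered 34.9% and 83.2%, and for O48 against WT AG-haESCs 42% and 77.8%. The fits behind these comparisons held further groups and more miRNAs, so their own recovery can differ. The rule named all 10 members; where few or none were called they are given as counts, medians or ranges, and other miRNAs of the locus as counts in the main comparisons only. The members and lists were chosen with earlier results of these data known. Of 115 pairs of replicates none held the same library (lowest chi-square 4.20 per degree of freedom). No set of same-numbered libraries had every pair's correlation over 0.1, so the numbers were not taken as pairs. Marker lists covered epiblast, trophoblast, endoderm, blood, decidua and pluripotent cells. Mature sequences matched 1275 of the 1504 names. All value columns of the tables used belonged to a sample.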

Additional observations from a re-analysis of the deposited data

Results flagged for a closer look

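Single libraries stood apart from the other 3 of their group by Dixon's test for 9 of the 140 sets of 4 libraries with a mean count of at least 10, where chance alone gives about 1 in 20. In E6.5 Epi these were miR-136-3p at 1569 CPM in *Dnmt*-null replicate 1, miR-434-5p at 9240 CPM in *Dnmt3a/3b*-DKO replicate 3 and at 8214 CPM in control replicate 3, and miR-136-5p at 190 CPM in *Dnmt1*-KO replicate 3 and at 163 CPM in control replicate 3. In E6.5 Exe they were miR-431-5p at 638 CPM in *Dnmt3a/3b*-DKO replicate 2 and miR-434-3p at 12091 CPM in control replicate 1. At E7.5 they were miR-136-3p at 2955 CPM in Epi *Dnmt1*-KO replicate 1 and miR-433-5p at 47.0 CPM in Exe *Dnmt1*-KO replicate 1.

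The *Dnmt1*-KO effect at E7.5 differed between Epi and Exe by 0.63 on the log2 scale for miR-434-3p and by 0.77 for miR-434-5p, both tested as an interaction in edgeR, where the median over all miRNAs was 0.59. In Epi the log2 fold changes against control were 0.62 and 1.01, and in Exe 0.50 and 0.73.

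The 10 miRNAs were also detected in 3 AG-haESC libraries of line 408, which entered no comparison because the labels give this line no genotype. They took 0.0355%, 0.0385% and 0.0354% of its counts.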

How the results depend on the processing

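Among log2 fold changes called in either setting, that of miR-434-3p between E7.5 and E6.5 Epi controls changed sign, from 0.02 to −0.45, when TMM factors were computed without the locus, a setting that moved the median of all miRNAs from −0.13 to −0.61. Uncalled values of E6.5 SC embryos also changed sign without WT replicate 3, among them miR-434-5p in *Dnmt*-null (−1.36 to 0.47) and DKO (−1.67 to 0.28) and miR-127-3p in DKO (−0.36 to 0.25). Numbers of called members that moved by more than 1.5 times are given next, and the causes were not tested. With DESeq2 they were 1 in E6.5 Epi for *Dnmt1*-KO and *Dnmt3a/3b*-DKO against control and against each other, 1 in E6.5 Exe *Dnmt*-null, 1 for the E6.5 *Dnmt*-null interaction, 7 and 0 in E7.5 Epi *Dnmt1*-KO and *Dnmt3a/3b*-DKO, 5 in E7.5 Exe *Dnmt*-null, 1 in E7.5 Exe *Dnmt1*-KO against *Dnmt3a/3b*-DKO and 0 for the E7.5 *Dnmt1*-KO interaction. With RLE factors they were 1 in E6.5 Epi *Dnmt*-null, 1 for its interaction, 0 in E7.5 Epi *Dnmt3a/3b*-DKO, 2 in E7.5 Exe *Dnmt*-null, 0 between E7.5 control tissues and 0 for the E7.5 interaction. With TMM without the locus E6.5 Epi had 0 for *Dnmt*-null against *Dnmt3a/3b*-DKO and 1 for *Dnmt1*-KO, and the numbers were 2 in DKO;*Dnmt*-null SC embryos, 7 in E7.5 Epi *Dnmt1*-KO, 3 in E7.5 Exe *Dnmt*-null, 0 in E7.5 SC embryos, 1, 2 and 3 between E6.5 tissues, E7.5 tissues and Epi stages, and 1 for the E7.5 interaction. A filter on a mean count of 10 gave 5 in E6.5 Epi *Dnmt*-null and 1 for the interaction. No filter gave 0, 1 and 1 in E6.5 Epi *Dnmt*-null against *Dnmt3a/3b*-DKO, *Dnmt*-null and *Dnmt1*-KO against control, 0 and 2 in E7.5 Epi *Dnmt*-null against *Dnmt1*-KO and *Dnmt3a/3b*-DKO against control, 0 and 3 in E7.5 Exe *Dnmt*-null against *Dnmt3a/3b*-DKO and against control, and 0 for the interaction. Fits of only the groups compared gave, in E6.5 Epi, 0, 1, 1, 2 and 1 for *Dnmt*-null against *Dnmt3a/3b*-DKO and control, *Dnmt1*-KO against *Dnmt3a/3b*-DKO and control, and *Dnmt3a/3b*-DKO against control, 0 and 2 in E7.5 Epi *Dnmt*-null against *Dnmt1*-KO and *Dnmt3a/3b*-DKO against control, 0 and 1 in E7.5 Exe *Dnmt*-null against *Dnmt3a/3b*-DKO and *Dnmt3a/3b*-DKO against control, 3 between E7.5 tissues and 2 between Epi stages. The study's thresholds gave 1, 4, 5, 3, 3 and 2 in E6.5 Epi (*Dnmt*-null against *Dnmt1*-KO, *Dnmt3a/3b*-DKO and control, *Dnmt1*-KO against *Dnmt3a/3b*-DKO and control, *Dnmt3a/3b*-DKO against control), 1 and 1 in E6.5 Exe (*Dnmt*-null, *Dnmt1*-KO against *Dnmt3a/3b*-DKO), 2, 2 and 1 for the E6.5 *Dnmt*-null, *Dnmt1*-KO and *Dnmt3a/3b*-DKO interactions, 0 in E7.5 Epi *Dnmt*-null against *Dnmt1*-KO, 0, 4, 2 and 5 in E7.5 Exe (*Dnmt*-null against *Dnmt3a/3b*-DKO and control, *Dnmt1*-KO against *Dnmt3a/3b*-DKO and control), 2 between E7.5 tissues and 4 for the E7.5 interaction.

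The labels do not say whether same-numbered Exe and Epi libraries came from the same embryos, and the main tests between tissues took them as independent. Every pair's correlation was over 0.1 in no set of same-numbered libraries (set medians from 0.00 to 0.21). Even so, same-numbered pairs had the higher median in each of the 8 genotype sets that join Exe and Epi (0.21 against −0.09 for E6.5 *Dnmt*-null). With the replicate block, members called were 1 in E6.5 Epi *Dnmt*-null, 1 in DKO;*Dnmt*-null SC embryos and 0 in E7.5 Exe *Dnmt*-null against *Dnmt3a/3b*-DKO; no other number moved by more than 1.5 times.

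Leaving out 1 library in turn gave, in E6.5 Epi, 1 to 4 members for *Dnmt*-null, 0 to 1 for *Dnmt1*-KO, and 0 to 1 for *Dnmt*-null against either mutant. It gave 1 to 3 in E7.5 Exe for *Dnmt*-null and *Dnmt1*-KO, 0 to 0 for *Dnmt*-null and 0 to 1 for *Dnmt1*-KO against *Dnmt3a/3b*-DKO, and in E7.5 Epi 0 to 2 for *Dnmt*-null against *Dnmt1*-KO, 1 to 5 against *Dnmt3a/3b*-DKO and 0 to 1 for *Dnmt3a/3b*-DKO. It gave 0 to 1 between tissues at either stage, 0 to 2 for the E7.5 interaction, 0 to 2 for DKO;*Dnmt*-null and 0 to 1 for E7.5 SC embryos. Depth limits the sparse arms: 3 counts were worth 66.3 CPM in the shallowest library, and miR-433-5p had 3 counts or fewer in 27 libraries.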

Other observations

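In the 3 libraries of AG-haESC line 408, miR-127-3p was at 235, 239 and 235 CPM, miR-434-3p at 35.3, 39.8 and 47.5 CPM and miR-136-3p at 52.1, 42.2 and 39.98 CPM. These values are given without a comparison because the labels state no genotype for the line.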
